A study of Mus musculus with 2 samples.

Results

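The 9 genes described here encode receptors, enzymes and a kinase through which noradrenaline, adrenaline and acetylcholine act on the heart: Adrb1, Adra1a, Adra1b, Chrm2, Adcy5, Adcy6, Grk5, Pde3a and Pde4d. They were chosen by name, with earlier results of these data known, and each symbol matched 1 of the 19465 genes measured. Their UMI counts were compared between 1 heart section of a control mouse and 1 of a TOP2B transgenic mouse, captured with Visium CytAssist, in which gene-specific probes on FFPE tissue are counted on a grid of barcoded spots. The control carried α-MHC-MerCreMer+/−, a tamoxifen-dependent Cre driven by the α-myosin heavy chain promoter of cardiomyocytes. The transgenic mouse, α-MHC-MerCreMer+/− hTOP2B LSL/−, carried the same Cre and in addition a human TOP2B cDNA behind a floxed stop cassette and the CAG promoter at Rosa26. Both genotypes received tamoxifen at 80 mg/kg, given by the study's methods as 1 injection at 6 weeks of age with siblings of the same age as controls. By genotype and treatment the control therefore shares the Cre and the drug and lacks the transgene. Each genotype is represented by 1 section of 1 animal, so animal and section differ along with the transgene. No difference below has a replicate check or a test.

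In cardiomyocytes, β1-adrenergic receptors act through the stimulatory G protein on adenylyl cyclases, whose product cAMP activates protein kinase A and raises the rate and force of contraction. Muscarinic M2 receptors oppose this through inhibitory G proteins and open the acetylcholine-gated potassium channel, and α1-adrenergic receptors act through Gq and phospholipase C. Phosphodiesterases break cAMP down, and G protein-coupled receptor kinases phosphorylate active receptors so that arrestins uncouple them.

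The RefSeq promoter sequences of GRCm38.p6 (250 bases before to 50 bases after a transcript start) included 7 entries for 6 of the 9 genes. They were searched on both strands for the cAMP response element TGACGTCA, bound by the CREB factors that protein kinase A activates, and for its core TGACG, which lies inside the full element. The full element was in 0 of the 7 entries and in 1.79% of all 32851 promoters, and the core was in 1 of the 7 and in 20.8% of all. The Adrb1 promoter at chr19:56721867-56722166 (plus strand), which holds that match, and the Grk5 promoter at chr19:60889499-60889798 (plus strand), of the only gene of the 9 that was higher in the transgenic section, read as follows, with the core in capitals.
Adrb1: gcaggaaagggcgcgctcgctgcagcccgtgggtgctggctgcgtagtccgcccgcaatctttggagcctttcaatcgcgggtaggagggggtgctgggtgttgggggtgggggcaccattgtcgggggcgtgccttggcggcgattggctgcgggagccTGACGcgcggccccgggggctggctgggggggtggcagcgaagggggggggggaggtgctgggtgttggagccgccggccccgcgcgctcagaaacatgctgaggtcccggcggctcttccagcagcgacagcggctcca
Grk5: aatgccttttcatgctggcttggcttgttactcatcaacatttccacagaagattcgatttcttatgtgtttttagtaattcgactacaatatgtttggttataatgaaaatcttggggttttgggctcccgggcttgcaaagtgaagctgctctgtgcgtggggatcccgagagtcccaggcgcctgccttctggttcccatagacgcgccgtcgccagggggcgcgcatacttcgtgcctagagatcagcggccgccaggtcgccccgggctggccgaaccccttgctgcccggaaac
A match is a description of letters in the window, and nothing on the binding of a factor was measured. The Adrb1 window was 72.3% G or C and the Grk5 window 54.3%, against a median of 52.7% over all promoters.

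The control section had 1256 spots over tissue with 14376300 UMIs, and the transgenic section 924 spots with 12953389 UMIs, of which 1 spot had none. Median depth was 11336 UMIs per control spot and 14531 per transgenic spot, and the sections used 725 spot barcodes in common, which are array positions and not shared cells. UMIs were summed per section and given as UMIs per 1000000 (CPM). Intervals in parentheses are exact 95% intervals (Poisson for a CPM, conditional binomial for a log2 ratio, Clopper–Pearson for a share) and cover counting error only. Of the mouse Top2b gene there were 1531 and 1318 UMIs (log2 ratio −0.07, −0.17 to 0.04), and the human transgene was not analysed here. Cardiomyocyte markers made up 3.97% of control and 4.0% of transgenic UMIs (9 of 10 listed genes measured, 3 of them higher in the transgenic section), so both sections carried the tissue on the label. Other lists differed more. Erythroid markers made up 0.214% of control and 2.04% of transgenic UMIs (4 of 4 genes higher), fibroblast markers 0.137% and 0.194% (8 of 8), and macrophage markers 0.0315% and 0.0621% (8 of 8). Endothelial markers were at 0.187% and 0.184% (6 of 8 higher), and smooth muscle markers at 0.0459% and 0.0318% although 4 of 6 were higher. Atrial markers summed to 365 and 1703 UMIs (4 of 5 higher), of which Dkk3 gave 57 and 947, and neuronal and glial markers to 488 and 3866 UMIs (7 of 10 higher), of which Uchl1 gave 142 and 3349. No marker of these lists was at 0 in either section.

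Most of the 9 genes were lower in the transgenic section, and Grk5 was higher. By CPM, 8 of 9 were lower, against 36.8% of the 15236 genes with at least 20 UMIs over both sections, and all 9 passed that minimum. The median log2 ratio of transgenic over control CPM was −0.41 for the 9 genes and 0.20 for all genes. At least 2-fold lower were 2 of 9, Adra1a and Adra1b, against 5.61% of all genes, and at least 2-fold higher was 1 of 9, Grk5, against 13.7%. The counting interval of the log2 ratio lay below 0 for 7 of the 9 genes (17% of all genes) and above 0 for 1 (39.4% of all genes), and that of Chrm2 included 0. Whether such an interval reaches 0 depends on a gene's UMIs as well as on its ratio. The 9 genes were chosen with earlier results of these data known, so the shares of all genes are a background and no test. Levels were also taken in 4 quadrants per section, bounded by the mean position of its spots. All transgenic quadrants lay below all control quadrants for 7 of the 9 genes (13.1% of all genes) and above them for 1 (30.4% of all genes). These orders rest on point values, and the quadrants of a section share its animal and library. Counting intervals of the nearest quadrants of the 2 sections overlapped for Adrb1, Adcy5, Adcy6, Pde3a and Pde4d. A spot can hold cells of several types, so fewer cells of a type and less RNA per cell cannot be told apart. The marker lists above differed between the same 2 sections, and their part in these values was not tested. Probes differ between genes, so levels are compared between sections and not between genes.

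**Figure D1:**
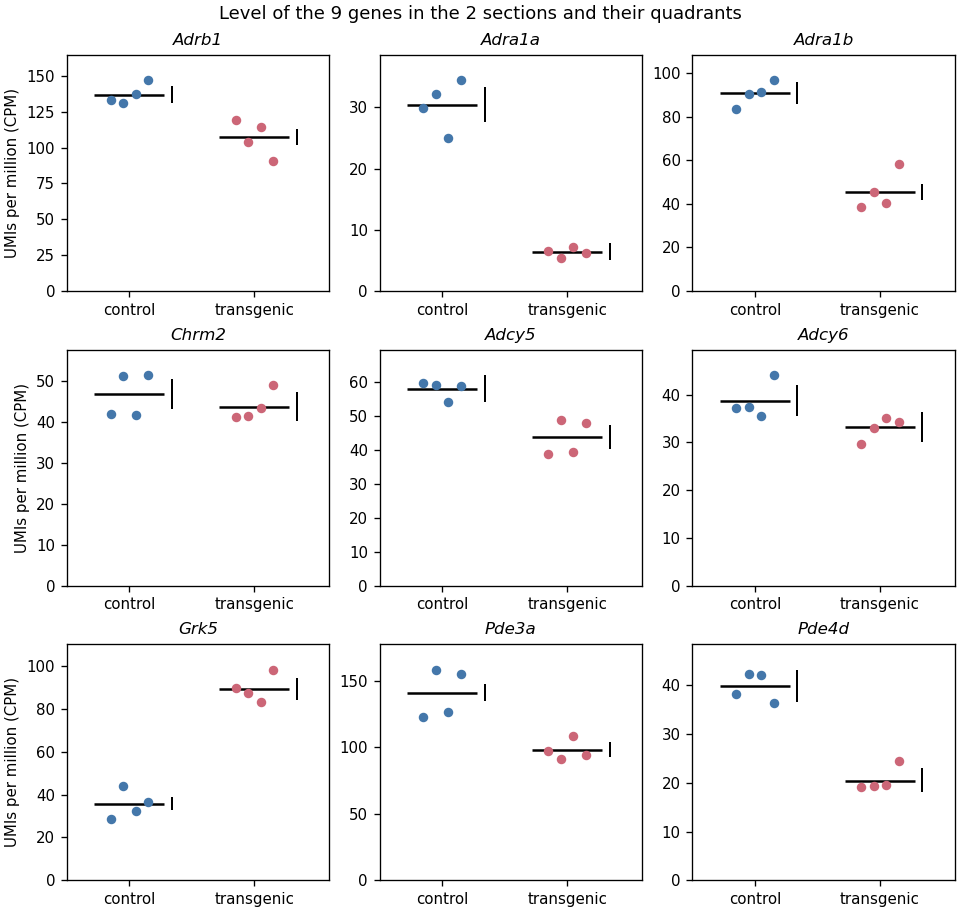
CPM of each of the 9 genes in the control and the transgenic section, with a vertical axis from 0 in each panel. Points are the 4 quadrants of a section, horizontal lines the whole section, and vertical bars its exact Poisson 95% interval. As points, without their counting error, quadrants of the 2 sections overlap only for Chrm2. The transgenic quadrants of Grk5 (83.2 to 98.3 CPM) lie above its control quadrants (28.7 to 43.9 CPM).

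Adrb1 encodes the β1-adrenergic receptor, the main β-receptor of cardiomyocytes. It had 1969 UMIs or 137 CPM (131 to 143) in the control and 1391 UMIs or 107 CPM (102 to 113) in the transgenic section. The log2 ratio was −0.35 (−0.45 to −0.25), nearer to 0 than those of most of the 7 genes whose interval lay below 0. Control quadrants ranged from 131 to 147 CPM and transgenic quadrants from 90.4 to 119 CPM. The lowest control quadrant thus stayed above the highest transgenic one, with overlapping counting intervals.

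Adra1a and Adra1b, which encode α1-adrenergic receptors, had the lowest log2 ratios of the 9 genes. The gene of the remaining α1-receptor, Adra1d, had 154 and 144 UMIs (log2 ratio 0.05, −0.28 to 0.39). Adra1a, the α1A-receptor, had 437 UMIs or 30.4 CPM (27.6 to 33.4) in the control and 82 UMIs or 6.33 CPM (5.03 to 7.86) in the transgenic section. It was 4.8-fold lower, with a log2 ratio of −2.26 (−2.62 to −1.92), and 0.433% of the 15236 genes had a lower ratio. Its control quadrants held 25.0 to 34.4 CPM and its transgenic quadrants 5.46 to 7.14 CPM. The lower level thus stood in all 4 quadrants of the transgenic section. Adra1b, the α1B-receptor, had 1302 UMIs or 90.6 CPM (85.7 to 95.6) in the control and 586 UMIs or 45.2 CPM (41.7 to 49.1) in the transgenic section. Its log2 ratio was −1.0 (−1.14 to −0.86), at the limit of 2-fold lower, with quadrants of 83.4 to 96.6 and 38.3 to 58.1 CPM. Adra1a differed more than Adra1b, and its share in the UMIs of both genes was 25.1% (23.1 to 27.2) in the control and 12.3% (9.88 to 15) in the transgenic section. Such a share is free of any scaling between sections. In quadrants it was 21.5% to 26.4% and 9.63% to 15%, without overlap.

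Chrm2, the muscarinic M2 receptor on which the vagus nerve acts, differed least. It had 670 UMIs or 46.6 CPM (43.1 to 50.3) in the control and 564 UMIs or 43.5 CPM (40.0 to 47.3) in the transgenic section. The log2 ratio was −0.10 (−0.26 to 0.07), and the quadrants, at 41.7 to 51.4 and 41.0 to 48.8 CPM, overlapped. The interval bounds the counting error of this ratio and not the difference between animals. Set against Chrm2, the share of Adrb1 in the UMIs of both receptors was 74.6% (72.9 to 76.3) in the control and 71.2% (69.1 to 73.2) in the transgenic section. Its quadrants, at 71.9% to 76.7% and 64.9% to 74.4%, overlapped.

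**Figure D2:**
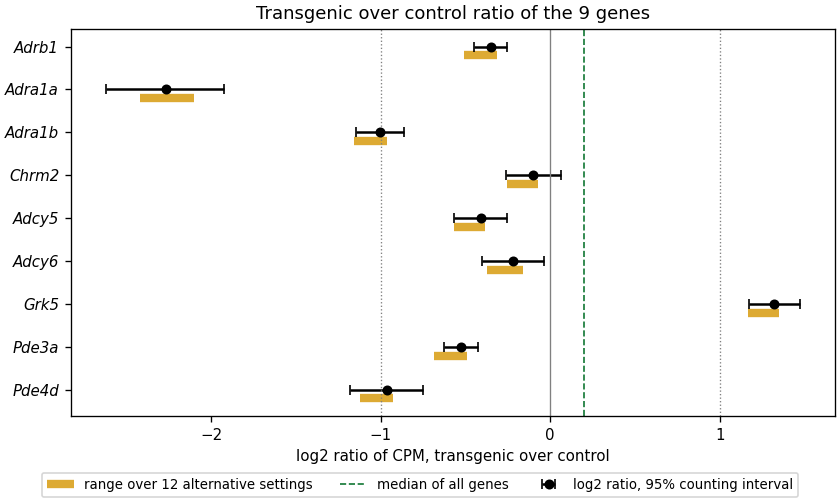
Log2 ratio of transgenic over control CPM for the 9 genes, with bars for the conditional binomial 95% interval. Yellow bands span 12 alternative settings, the dashed line is the median of all genes (0.20) and dotted lines mark 2-fold. Adra1a at −2.26 is lowest, Grk5 at 1.32 is the only gene above 0, and no band crosses 0.

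Adcy5 and Adcy6 encode the adenylyl cyclases of cardiomyocytes that calcium inhibits. Adcy5 had 833 UMIs or 57.9 CPM (54.1 to 62.0) in the control and 565 UMIs or 43.6 CPM (40.1 to 47.4) in the transgenic section, which gives a log2 ratio of −0.41 (−0.57 to −0.25). Adcy6 had 555 UMIs or 38.6 CPM (35.5 to 42.0) and 430 UMIs or 33.2 CPM (30.1 to 36.5), a log2 ratio of −0.22 (−0.40 to −0.03). Both were lower, Adcy5 with quadrants of 54.1 to 59.7 against 38.6 to 48.9 CPM. For Adcy6 the gap between quadrants was narrow, with 35.5 to 44.1 CPM in the control and 29.7 to 35.2 CPM in the transgenic section. Its nearest quadrants, each of 128 UMIs, had intervals of 29.7 to 42.3 and 29.3 to 41.8 CPM, so counting error does not separate them. The share of Adcy5 in the UMIs of both cyclases was 60.0% (57.4 to 62.6) and 56.8% (53.6 to 59.9), so the intervals overlapped.

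Grk5 encodes a receptor kinase that phosphorylates active β-receptors and can also enter the nucleus. It had 512 UMIs or 35.6 CPM (32.6 to 38.8) in the control and 1154 UMIs or 89.1 CPM (84.0 to 94.4) in the transgenic section. It was thus 2.50-fold higher, with a log2 ratio of 1.32 (1.17 to 1.48). All 4 transgenic quadrants lay above the control quadrants. Grk2, the other main receptor kinase of the heart, had 1446 and 1232 UMIs with a log2 ratio of −0.08 (−0.19 to 0.03). The share of Grk5 in the UMIs of both kinases was 26.1% (24.2 to 28.2) in the control and 48.4% (46.3 to 50.4) in the transgenic section, with quadrants of 23.0% to 30.8% and 48.1% to 49.1%.

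Pde3a and Pde4d encode phosphodiesterases that break down cAMP near the sarcoplasmic reticulum and the receptors. Pde3a had 2029 UMIs or 141 CPM (135 to 147) in the control and 1270 UMIs or 98.0 CPM (92.7 to 104) in the transgenic section, which gives a log2 ratio of −0.53 (−0.63 to −0.42). Pde4d had 573 UMIs or 39.9 CPM (36.7 to 43.3) and 265 UMIs or 20.5 CPM (18.1 to 23.1), a log2 ratio of −0.96 (−1.18 to −0.75). Point values of the quadrants did not overlap for either gene, at 123 to 158 against 91.5 to 108 CPM for Pde3a and 36.4 to 42.3 against 19.1 to 24.4 CPM for Pde4d. The counting intervals of the nearest quadrants overlapped for both genes. The ratio was lower for Pde4d, and the share of Pde3a in the UMIs of both genes was 78.0% (76.3 to 79.6) in the control and 82.7% (80.8 to 84.6) in the transgenic section. The quadrant ranges of that share, 75.0% to 81.0% and 79.4% to 84.7%, overlapped.

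**Figure D3:**
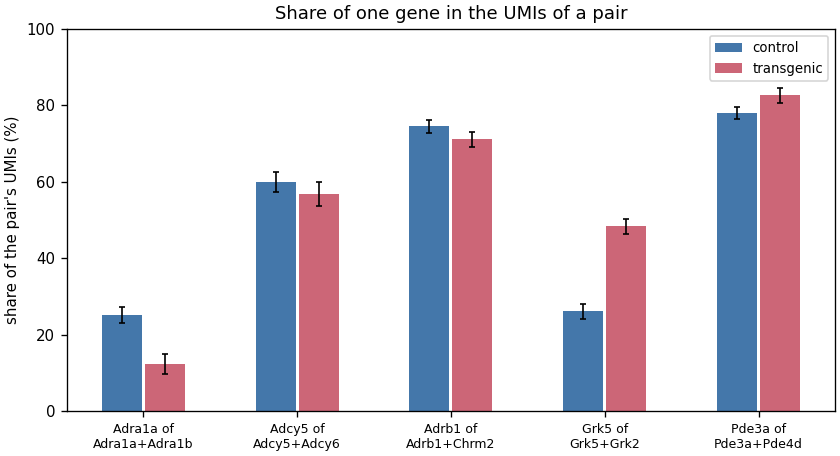
Share of 1 gene in the UMIs of a pair of genes, in percent, for the control and the transgenic section. Bars start at 0 and error bars are Clopper–Pearson 95% intervals. The share of Grk5 among Grk5 and Grk2 goes from 26.1% to 48.4% and that of Adra1a among Adra1a and Adra1b from 25.1% to 12.3%, while the shares of Adcy5 among Adcy5 and Adcy6 have overlapping intervals.

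Because the transgenic spots were deeper, the share of spots with a UMI of a gene was also taken after thinning each spot to 8139 UMIs, and 141 control and 77 transgenic spots were too shallow for this. Adra1a was found in 28.2% (25.7 to 30.8) of control and 8.77% (7.02 to 10.8) of transgenic spots, and after thinning in 23.0% and 5.08%. Grk5 was found in 33.6% (31.0 to 36.3) and 67.7% (64.6 to 70.8), and after thinning in 24.3% and 51.9%. These shares moved the same way as the CPM, with or without thinning. After thinning, Adrb1 was in 66.4% and 59.8% of spots, Adra1b in 52.1% and 29.1%, Pde3a in 67.4% and 54.0%, and Pde4d in 27.8% and 15.7%. Adcy5 was then in 39.4% and 28.6%. Those of Chrm2, 32.3% (29.5 to 35.1) and 31.0% (27.9 to 34.2), and of Adcy6, 26.6% (24.1 to 29.3) and 23.3% (20.5 to 26.3), had overlapping intervals. Without thinning, Chrm2 was in 40.6% of control and 43.6% of transgenic spots and Adcy6 in 35.4% and 37.2%, against the direction of their CPM, and no order is read from those shares. For comparison, 16 genes of other tissues were found in a median of 0.796% of control and 0.974% of transgenic spots, with the highest, Gnat1 of photoreceptors, in 1.75% and 3.03%. All 9 genes lay above that level in both sections, and no spot held more than 9 UMIs of any of them.

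The deposited spatial score, Moran's I, compares a gene in neighboring spots and is near 0 for a gene without a spatial pattern. In the control section it ranged over the 9 genes from −0.01 for Pde4d to 0.04 for Chrm2, beside a median of 0.00239 and a 90th percentile of 0.0203 over 12242 genes with at least 20 UMIs. In the transgenic section it was 0.10 for Adrb1 and 0.09 for Pde3a, and the other 7 genes ranged from −0.01 to 0.04. The median there was 0.0198 and the 90th percentile 0.12 over 12441 genes. Adrb1, Chrm2, Adra1a and Pde3a thus lay above the 90th percentile of the control section, and no gene of the 9 lay above that of the transgenic section. The score was recomputed on the 6 grid neighbors and moved by 0.02 or more only for Adra1a in the control, from 0.02 to 0.05.

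**Figure D4:**
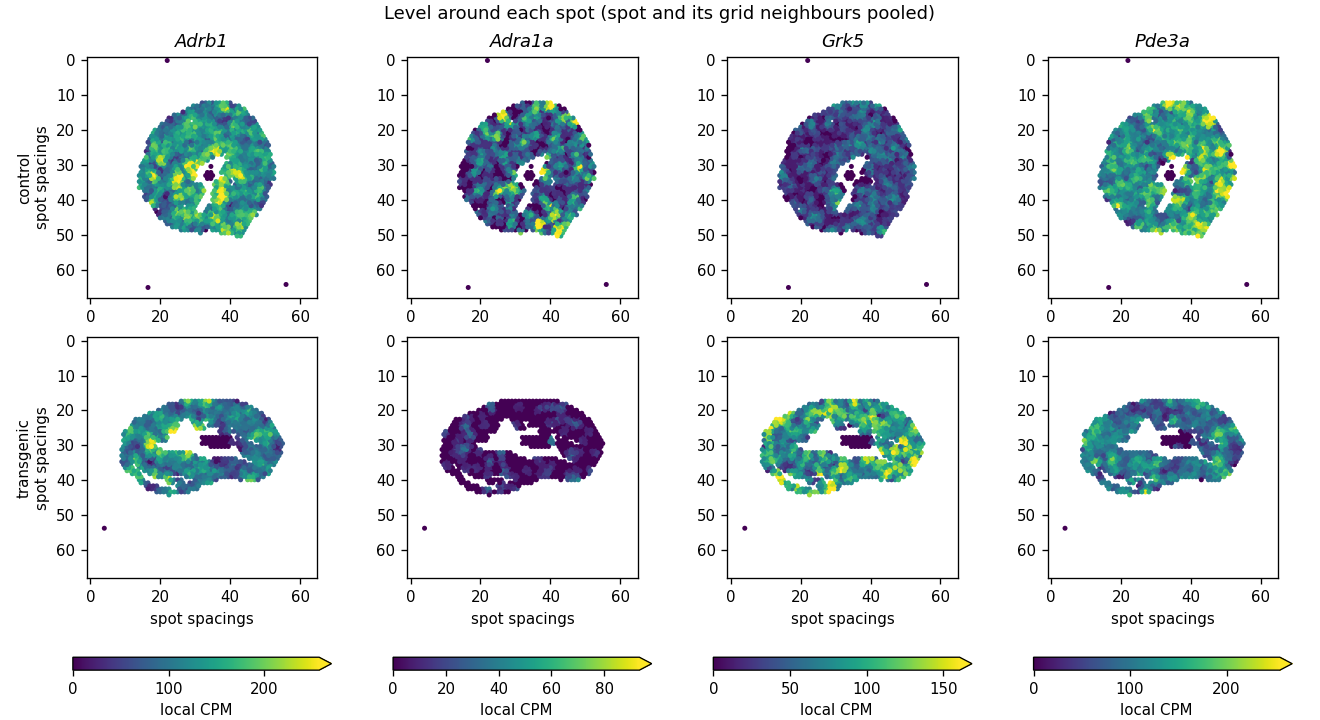
Maps of Adrb1, Adra1a, Grk5 and Pde3a in the control (top) and transgenic (bottom) section, with axes in spot spacings. Color is the local CPM of a spot pooled with its grid neighbors, on 1 scale per gene for both sections. Adra1a is low and Grk5 high throughout the transgenic wall. Adrb1 is higher along the cavity of the control, and the few spots inside that cavity are dark.

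The maps showed a ring-shaped wall in the control and an elongated one in the transgenic section, each around a cavity, so the sections also differed in shape, whose part in the values was not tested. After the maps were seen, the walls were divided into 3 zones by the relative distance of a spot from the outer surface and from the cavity. Spots with over 5% erythroid UMIs, 9 in the control and 64 in the transgenic section, and spots outside the main tissue, 3 and 1, were left out. Enclosed gaps of at least 3 array positions, with left-out spots counted as gap, were taken as cavity. From outer to inner, the zones held 542, 396 and 306 control spots and 249, 234 and 375 transgenic spots. The spots over that erythroid limit held 0 UMIs of the 9 genes among 12911 UMIs in the control and 132 among 428097 in the transgenic section. Epicardial markers (Upk3b, Msln, Upk1b and Wt1) summed to 20.8 CPM in the outer and 6.49 CPM in the inner zone of the control, and to 62.8 and 7.39 CPM in the transgenic section. Endocardial markers (Npr3, Nfatc1, Cgnl1 and Adgrg6) were at 50.2, 23.0 and 65.8 CPM from the outer to the inner zone of the control. In the transgenic section they were at 95.9, 54.0 and 90.6 CPM. Their inner over outer log2 ratios were 0.39 (0.13 to 0.64) and −0.08 (−0.29 to 0.12). Epicardial markers thus marked the outer zone in both sections. Endocardial markers were lowest in the middle zone of both sections, and higher in the inner than in the outer zone only in the control. They therefore did not mark the inner zone alone in either section. In the control, Adrb1 was at 127 CPM in the outer, 129 in the middle and 167 in the inner zone, an inner over outer log2 ratio of 0.40 (0.24 to 0.56). In the transgenic section it was at 105, 104 and 115 CPM, a ratio of 0.13 (−0.06 to 0.32). Adrb1 was thus higher toward the cavity in the control, and in the transgenic section that ratio could not be told from 0 by counting error. The difference between the sections was not tested. Because endocardial markers did not tell the inner from the outer zone of the transgenic section, no loss of a gradient is read there for any of the 9 genes. Such an inner over outer interval lay above 0 for 2 of the 9 genes in the control, beside 4.96% of all genes, and for 0 of the 9 in the transgenic section, beside 3.49%. Both of these 2 genes were mapped before the zones were drawn, so the count is a description and no test. It also depends on the UMIs of each gene. Grk5, the other of these 2 genes, was at 33.9, 32.7 and 43.0 CPM from the outer to the inner zone of the control (log2 ratio 0.34, 0.03 to 0.66) and at 92.4, 90.3 and 88.1 CPM in the transgenic section (−0.07, −0.28 to 0.14). For the other 7 genes the interval of this ratio included 0 in both sections.

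Edge spots, those with a grid neighbor off the tissue, lined both the outer surface and the cavities. Between them and interior spots the log2 ratio of 0 of the 9 genes had an interval clear of 0 in either section (230 and 1026 spots in the control, 310 and 613 in the transgenic section), beside 8.17% of all genes in the control and 9.15% in the transgenic section. This split averages over interior spots. At 2 and at 3 or more steps from the edge, Grk5 was at 97.5 (87.0 to 109) and 73.6 (63.3 to 85.1) CPM in the transgenic section. Adrb1 was at 164 (148 to 181) and 131 (122 to 139) CPM there in the control. Both were picked after their values were seen, and no share of all genes was taken. The 10% of spots richest in each of the 8 marker lists were compared with the other spots, which gave 72 values per section. The interval was clear of 0 for 9 of the 72 in the control and 8 in the transgenic section, beside 5.67% and 13.1% of the values of all genes with the same lists. The transgenic count is thus near the background. All genes here include those with as few as 20 UMIs over both sections. For the edge and the marker lists, too, whether an interval reaches 0 depends on a gene's UMIs as well as on its ratio. In the control, Adra1a was lower in spots rich in neuronal and glial markers, at 17.2 against 31.7 CPM (log2 ratio −0.88, −1.56 to −0.28), where that list summed to 488 UMIs over 1256 spots, and in those rich in fibroblast markers, at 20.5 against 31.3 CPM (−0.61, −1.24 to −0.04). Adrb1 and Adcy5 were higher in the fibroblast-rich spots, Adrb1 at 162 against 135 CPM (0.27, 0.05 to 0.48) and Adcy5 at 71.9 against 56.6 CPM (0.35, 0.02 to 0.66). Adra1b was lower there, at 71.9 against 92.4 CPM (−0.36, −0.68 to −0.05). Chrm2 was lower in the endothelium-rich control spots, at 33.6 against 47.9 CPM (−0.51, −0.99 to −0.07), and Adrb1 was lower in the control spots rich in neuronal and glial markers, at 116 against 139 CPM (−0.26, −0.51 to −0.02). Pde3a was lower in the control spots rich in atrial markers, at 115 against 144 CPM (−0.32, −0.57 to −0.08), and higher in the macrophage-rich ones, at 163 against 139 CPM (0.23, 0.02 to 0.43). The atrial list summed to only 365 UMIs over the 1256 control spots. In the transgenic section, Grk5 was higher in spots rich in smooth muscle markers, at 108 against 87.0 CPM (0.31, 0.05 to 0.57), and Pde3a in fibroblast-rich spots, at 121 against 95.5 CPM (0.34, 0.09 to 0.58). Adcy5 was lower in the macrophage-rich spots, at 31.9 against 44.9 CPM (−0.49, −1.0 to −0.03), and in the fibroblast-rich spots it was at 54.9 against 42.3 CPM (0.38, −0.0016 to 0.74), a ratio like that of the control with an interval that just included 0. In the transgenic spots rich in atrial markers Adra1b was at 59.3 against 43.7 CPM (0.44, 0.07 to 0.79) and Adcy5 at 57.0 against 42.2 CPM (0.44, 0.06 to 0.79). Dkk3 gave 947 of the 1703 UMIs of that list there, so those spots were ranked largely by 1 gene. In the control the ratios of Adra1b and Adcy5 were 0.11 and −0.27, with intervals that included 0. The remaining 3 values of the transgenic section were those of the erythroid-rich spots. The other patterns of the control had intervals that included 0 in the transgenic section. The ratio had the opposite sign there for Adra1b in fibroblast-rich (0.10), Chrm2 in endothelium-rich (0.22) and Pde3a in atrial-rich (0.15) and macrophage-rich spots (−0.21). For Adrb1 the sign was kept in fibroblast-rich spots (0.10) and in those rich in neuronal and glial markers (−0.10). Adra1a had only 5 UMIs in the fibroblast-rich spots (−0.79, −2.46 to 0.49). It had 9 in those rich in neuronal and glial markers (−0.003, −1.19 to 1.00), so no direction is read for it. Uchl1 gave 3349 of the 3866 UMIs of the neuronal and glial list in the transgenic section, so those spots were ranked largely by 1 gene.

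In the 92 transgenic spots richest in erythroid markers, which gave 23.5% of the UMIs there and 0.686% in the other 831 spots, Adcy6, Adra1b and Pde3a were lower. Adcy6 was at 18.2 against 34.1 CPM (log2 ratio −0.91, −1.79 to −0.14), Adra1b at 27.3 against 46.4 CPM (−0.76, −1.47 to −0.14) and Pde3a at 63.8 against 100.2 CPM (−0.65, −1.09 to −0.24). When erythroid UMIs were taken out of the totals, a step added after these values were seen, the log2 ratios were −0.53 (−1.41 to 0.23), −0.39 (−1.09 to 0.24) and −0.28 (−0.72 to 0.14), and all 3 intervals included 0. With the same step the ratio of Adcy5 was 0.53 (0.01 to 1.01), at 62.9 against 43.6 CPM, and its interval became clear of 0. Between the shallowest and the deepest of 3 equal groups of spots, only Chrm2 of the 9 genes had an interval clear of 0 in the control (6.95% of all genes did), at 38.3 and 51.0 CPM (log2 ratio 0.41, 0.12 to 0.72), and in the transgenic section it was at 38.7 and 44.2 CPM (0.19, −0.13 to 0.53). In the transgenic section the interval was clear of 0 for 0 of the 9, beside 11.8% of all genes. These counts, too, depend on the UMIs of each gene.

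Transgenic spots differed in the share of Myh7, the fetal β-myosin gene that rises in stressed mouse ventricle, in the UMIs of Myh6 and Myh7. In 3 groups of 295 spots by this share, its median was 45.2%, 57.8% and 67.4%. Adra1b was at 37.7, 47.2 and 52.9 CPM from the lowest to the highest group, with a log2 ratio of highest over lowest of 0.49 (0.19 to 0.78). Adcy6 was at 28.8, 33.5 and 38.5 CPM (0.42, 0.08 to 0.77), Adcy5 at 40.7, 41.2 and 50.7 CPM (0.32, 0.03 to 0.61), and Pde3a at 89.6, 101 and 107 CPM (0.26, 0.06 to 0.45). These 4 genes, which were lower in the transgenic section as a whole, were higher in its spots with the larger Myh7 share, 4 of 9 beside 11.9% of all genes with an interval above 0. Grk5, which was higher in the whole section, was at 82.9, 94.3 and 93.3 CPM (0.17, −0.04 to 0.38). The intervals of Adrb1 (0.06), Chrm2 (0.22), Pde4d (0.07) and Adra1a (−0.39) included 0 as well. Cardiomyocyte markers made up 4.07%, 4.17% and 3.89% of UMIs in the 3 groups. Whether an interval reaches 0 again depends on a gene's UMIs as well as on its ratio. Adra1b, Adcy6 and Pde3a were also the genes lower in erythroid-rich spots before erythroid UMIs were taken out. The erythroid share of the 3 groups was not taken, and its part in these values was not tested.

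Genes most like a member over spots were sought where the member had at least 1 UMI per spot on average, by Pearson correlation of log-transformed UMIs per 10000. Candidates were the genes with such a mean, 1804 in the control and 2531 in the transgenic section. In the 923 transgenic spots the closest to Adrb1 were Lpl (0.29), Slc25a4 (0.29) and Uqcrc1 (0.28), which serve lipid uptake and mitochondrial energy supply. Among the closest to Pde3a were Cd36 (0.28) and Hrc (0.25), a fatty acid transporter and a calcium-binding protein of the sarcoplasmic reticulum. The closest to Grk5 were Igfbp7, Col4a2 and Ltbp4 (all 0.25), which encode secreted and basement membrane proteins. In the 1256 control spots the closest gene reached 0.17 for Adrb1 (Cst3), 0.14 for Adra1b (Akirin2) and 0.15 for Pde3a (Ptp4a3). These are weak correlations in sparse counts of spots that share a library and differ in depth. They are the highest over all candidates, whose sets differ between the sections, so no shared function is read from them. Erythroid-rich spots were kept, with up to 88.4% erythroid UMIs in a transgenic spot, which lowers other genes there together. The part of this in the correlations was not tested. Among the 9 genes themselves the 36 pairwise correlations ranged from −0.03 to 0.09 in the control and from −0.08 to 0.12 in the transgenic section, all weak.

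The other genes of the pathway, 117 listed by role with earlier results of these data known, differed in both directions. Of the 108 with at least 20 UMIs, 44 were lower and 64 higher, 13 of them at least 2-fold lower and 18 at least 2-fold higher, or 12.0% and 16.7% of them beside the 5.61% and 13.7% of all genes given above. Their median log2 ratio was 0.20, beside 0.20 for all genes. With edgeR's TMM factors, which lower every log2 ratio by 0.16, the counts were 53 lower and 55 higher. The median of all genes was then 0.05, and shares of all genes were not taken with these factors. With total UMIs, 36.8% of all genes were lower and 63.2% higher, the background for the counts by role below. Among the 7 other receptors, 5 were higher (4 with TMM). The interval lay above 0 for 1 of the 7, Adra2a, and below 0 for 0, beside 39.4% and 17% of all genes. They ran from Adrb3 with 18 and 11 UMIs (−0.56, −1.79 to 0.60) to Adra2a, the α2A-receptor that limits noradrenaline release, with 12 and 50 UMIs (2.21, 1.28 to 3.25). Of 17 G protein genes and regulators 14 were higher (13 with TMM), with extremes at Gnao1, an α-subunit of the inhibitory class, with 235 and 1055 UMIs (2.32, 2.11 to 2.53) and Ric8b, a chaperone of stimulatory α-subunits, with 371 and 148 UMIs (−1.18, −1.46 to −0.90).

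Of the 7 other adenylyl cyclases 6 were higher, also with TMM factors, in the commoner direction, since 63.2% of all genes were higher. The intervals of 2 of these 6 included 0, those of Adcy2 with 7 and 16 UMIs (log2 ratio 1.34, −0.02 to 2.87) and Adcy8 with 11 and 13 UMIs (0.39, −0.88 to 1.69). Their difference from Adcy5 and Adcy6 was not tested. The highest was Adcy1, a calmodulin-stimulated cyclase of the nervous system, with 44 and 165 UMIs (log2 ratio 2.06, 1.57 to 2.57). Only Adcy9 was lower, with 342 and 189 UMIs (−0.71, −0.97 to −0.44). Of the 7 other receptor kinases and arrestins, 5 were higher (4 with TMM), led by Grk3 with 101 and 227 UMIs (1.32, 0.97 to 1.67), and the lowest was Grk6 with 684 and 553 UMIs (−0.16, −0.32 to 0.01). The interval lay above 0 for 3 of the 7 and below 0 for 0 of them, beside 39.4% and 17% of all genes. Among the 5 higher, it included 0 for Grk1 with 14 and 13 UMIs (0.04, −1.16 to 1.24) and Grk4 with 13 and 23 UMIs (0.97, −0.07 to 2.08). Of 13 other phosphodiesterases 7 were lower and 6 higher, from Pde4c with 91 and 30 UMIs (−1.45, −2.10 to −0.84) to Pde9a, which breaks down cGMP, with 59 and 150 UMIs (1.5, 1.05 to 1.96).

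Downstream of the receptors, the channels and effector targets were the role group with the lowest median, −0.80. Of 15, 13 were lower with total UMIs and with TMM factors, beside 36.8% of all genes lower and 63.2% higher with total UMIs. At least 2-fold lower were 7 of the 15, or 46.7%, beside 5.61% of all genes. Cacna1c, the pore of the L-type calcium channel that protein kinase A stimulates, had 1598 UMIs or 111 CPM in the control and 312 UMIs or 24.1 CPM in the transgenic section (−2.21, −2.39 to −2.03). Kcne1, a potassium channel subunit, was the highest, with 280 and 862 UMIs (1.77, 1.58 to 1.97). Of 19 genes of protein kinase A, its anchors and other cAMP effectors, 9 were lower and 10 higher (12 and 7 with TMM). Their lowest was Akap5, an anchor that holds the kinase near receptors and calcium channels, with 75 and 16 UMIs (−2.08, −2.96 to −1.29), and their highest Prkar1b, with 20 and 70 UMIs (1.96, 1.22 to 2.75). Of 11 genes of the phospholipase C arm 8 were higher (6 with TMM), from Prkca, with 277 and 172 UMIs (−0.54, −0.82 to −0.26), to Prkcd, with 176 and 455 UMIs (1.52, 1.27 to 1.78). Of 12 genes for transmitter synthesis, uptake and breakdown 8 were higher, from Slc22a3, a catecholamine transporter, with 56 and 11 UMIs (−2.20, −3.28 to −1.25), to Ache, acetylcholinesterase, with 26 and 108 UMIs (2.20, 1.58 to 2.88). Akap5 (1.24 CPM) and Slc22a3 (0.849 CPM) in the transgenic section and Prkar1b (1.39 CPM) in the control lay below Gnat1 of that section. The size of their ratios is therefore not read.

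**Figure D5:**
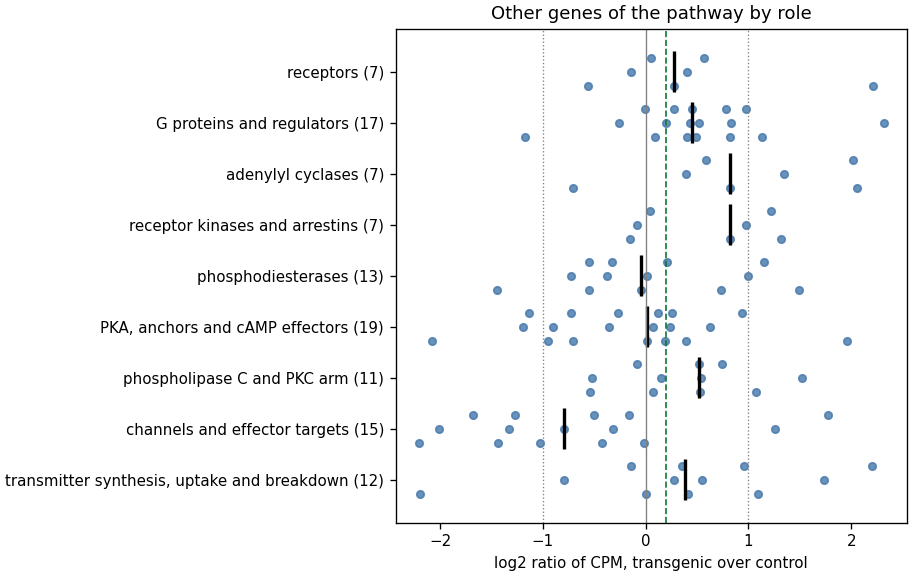
Log2 ratio of transgenic over control CPM for the 108 other genes of the pathway with at least 20 UMIs, by role, with the number of genes in parentheses. Points are genes, black bars group medians, the dashed line the median of all genes (0.20) and dotted lines 2-fold. Genes at the level of genes of other tissues are included. The channels and effector targets have the lowest median (−0.80) and the adenylyl cyclases and the receptor kinases with arrestins the highest (both 0.82).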

How the data were processed

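Visium CytAssist FFPE counts of 1 control and 1 TOP2B transgenic heart section were used. The deposited values are unnormalized UMI counts of each gene in each spot, made by the authors with Space Ranger 2.0.0, per the file headers, and the builds GRCm39 and mm39 stand in the submitters' processing notes. The probe set is not given in the sources used here. Moran's I is a score that the authors deposited per gene, and its deposited p-values and the section images were not used. Summed counts per gene equalled the deposited totals for all 19219 control and 19227 transgenic genes of that table. Spots carry mixed cells, no clusters were made, and no doublet caller was run.

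UMIs were summed per section because its spots do not replicate a genotype. For the same reason the Wilcoxon test of the study, which runs over spots, was not used, and no p-value is given. The floor for a sum of 0 was 3 counts (0.209 CPM in the control, 0.232 in the transgenic section), which no gene of the 9 needed. The members and the gene lists were chosen with earlier results of these data known. The genes named are the 9 members, the highest and lowest gene of each role group among those with at least 20 UMIs, Top2b and the 3 genes most correlated with a member. Grk1, Grk2, Grk4, Adra1d, Adcy2, Adcy8, Gnat1, Dkk3, Uchl1 and the wall markers were named beyond this rule, after their values or the maps were seen. Quadrants were split at the mean spot position. The zones of the wall, the groups of spots by depth and the correlations among the 9 genes were added after the data were seen. Some genes of these lists are not reported here. The intervals were tested before use on simulated Poisson counts, the model they assume, so spread between spots or animals was not probed.

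The scaling was varied with TMM factors of edgeR 4.0.16 and size factors of DESeq2 1.42.0, and further alternatives were other denominators, subsets of spots, means over spots and 1 CPM added. Python 3.11.15, numpy 2.4.6, scipy 1.17.1, pandas 2.3.3, matplotlib 3.10.9 and R 4.3.3 were used.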

Additional observations from a re-analysis of the deposited data

How the results depend on the processing

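All 9 genes kept the sign of their log2 ratio under 12 alternatives, of which totals without erythroid UMIs was added after seeing the data. Of 108 such values, 100 stayed inside the gene's counting interval and 8 did not, all with TMM or DESeq2 factors, which lowered the median of all genes by 0.16 and 0.15. The DESeq2 size factor was 1 for both sections, so that setting compared summed UMIs without any scaling for the totals. Relative to that median, Adra1a ranged from −2.53 to −2.27, Grk5 from 1.09 to 1.15 and Chrm2 from −0.33 to −0.26. The median of the 9 genes was −0.57 with TMM factors instead of −0.41. The number at least 2-fold lower was 1 instead of 2 without erythroid UMIs in the totals, without the 10% of spots richest in erythroid markers, and with 1 CPM added, since Adra1b sits at the limit. That number was 3 with TMM factors, with DESeq2 factors and with totals without the 50 most abundant genes. Pde4d was then at −1.12, −1.11 and −1.05. In the remaining settings the number was 2. All 18 shares of spots moved on thinning, which lowers them by construction. No paired analysis was possible because each genotype has 1 section. Depth limited Adra1a most, with 82 transgenic UMIs.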
